A study of Mus musculus with 4 samples.

Results

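The Gimap genes encode a family of small GTP-binding proteins, the GTPases of immunity-associated proteins, which share one guanine nucleotide-binding domain and are used mainly by lymphocytes. The family was taken as 8 genes chosen by name, Gimap1, Gimap3, Gimap4, Gimap5, Gimap6, Gimap7, Gimap8 and Gimap9, of 47643 genes in the deposited count table, and all 8 were present in it. Their RNA was measured in CD4+ T cells of the spleen of Tg4 Nr4a3-Tocky IL-10 GFP mice, in which most CD4+ T cells carry a transgenic receptor (Tg4) that recognizes a peptide of myelin basic protein (MBP). In these mice a fluorescent Timer protein is made under control of Nr4a3 after receptor signaling, and EGFP reports transcription of Il10. All mice had received 4 mg/kg of [4Y]-MBP, a variant of the peptide that binds MHC class II more stably, 24 h before the spleen was taken, and both populations were sorted as CD4+ Timer+. The cells then differed in 1 sorting criterion, with 2 libraries from Il10-EGFP+ cells and 2 from Il10-EGFP− cells. No unimmunized group was among the 4 libraries, and the age and sex of the mice behind each library were not given in the sources used here. The cells respond to 1 receptor specificity, and the EGFP gate sets the populations by a reporter that is itself downstream of that response.

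GIMAP proteins bind GTP and dimerize on membranes, and several sit on the endoplasmic reticulum, mitochondria, lysosomes or lipid droplets. In mice, Gimap5 is needed for the survival of resting peripheral T cells, and its loss causes lymphopenia. Gimap1 is needed for mature T and B cells, Gimap4 has been tied to T cell maturation and cell death, and the Gimap6 protein binds the autophagy protein GABARAPL2. B cells and endothelial cells also use Gimap genes.

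The 8 genes lay side by side on chromosome 6 of GRCm38, between 48647234 and 48770851 (123.6 kb). From low to high coordinates the order was Gimap8 (48647234 to 48660875), Gimap9 (48676129 to 48679114), Gimap4 (48684549 to 48692060), Gimap6 (48701582 to 48708225), Gimap7 (48718621 to 48724636), Gimap1 (48739054 to 48743795), Gimap5 (48746197 to 48754210) and Gimap3 (48764464 to 48770851). Gimap6 and Gimap3 were annotated on the minus strand and the other 6 on the plus strand.

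The P-loop is the stretch of the GTPase domain that holds the phosphates of GTP. It is shown because every member carries it and because its bases separate the members that are closest in sequence from the rest. The coding bases below were read from the GENCODE M21 transcripts, 5′ to 3′, and the capitals mark the codons of the fixed residues (glycine, glycine, lysine, then serine or threonine).
Gimap9, codons 15 to 22: GGGaagactggaaatGGGAAGAGT
Gimap7, codons 15 to 22: GGGaaaacaggaagtGGAAAGAGC
Gimap4, codons 37 to 44: GGAaaaactggagcaGGAAAGAGT
Gimap6, codons 110 to 117: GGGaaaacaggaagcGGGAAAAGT
Gimap1, codons 33 to 40: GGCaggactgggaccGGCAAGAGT
Gimap5, codons 33 to 40: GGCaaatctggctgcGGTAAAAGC
Gimap3, codons 29 to 36: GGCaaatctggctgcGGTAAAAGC
Gimap8, codons 55 to 62: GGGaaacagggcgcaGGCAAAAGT
Gimap8, codons 291 to 298: GGGaagcgtggtgttGGGAAAAGT
Gimap8, codons 482 to 489: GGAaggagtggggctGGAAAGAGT
Gimap8 held 3 copies in 2064 coding bases, and the other 7 members held 1 copy each in 873 to 984 coding bases. The P-loops of Gimap3 and Gimap5 were the same in every base. Across their coding sequences Gimap3 and Gimap5 were identical at 809 of 895 aligned bases (90.4%), and the other pairs reached 55.8% to 73.9%, where pairs with the longer Gimap8 aligned over only a stretch of it.

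The libraries were shallow, at 644679 to 730330 counts, and a gene was tested if its counts summed to 10 or more, which left 9608 genes. Il10, the gene behind the reporter, had 0 and 0 counts in Il10-EGFP− cells against 29 and 41 in Il10-EGFP+ cells. CD4 T cell markers summed to 4500 and 4206 CPM (counts scaled to library size) in Il10-EGFP− cells against 5265 and 4878 CPM in Il10-EGFP+ cells. B cell markers, mainly immunoglobulin genes, summed to 121 and 162 CPM against 436 and 512 CPM. Myeloid markers summed to 106 and 137 CPM against 379 and 199 CPM. Both lists were therefore higher in the Il10-EGFP+ libraries. edgeR's quasi-likelihood test called 393 genes at an adjusted p under 0.05, or 4.09% of those tested, with 226 higher in Il10-EGFP+ cells (2.35%) and 167 lower (1.74%). DESeq2 called 112 (1.17%).

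All 8 members were measured in every library, at 38 to 205 counts, and passed the filter on low counts. Within this family Gimap4 was higher in Il10-EGFP+ cells, and no other member passed the test in either direction. The called share of 1 in 8 rests on 1 gene and is set against the 2.35% of tested genes called higher. Of the 1665 tested genes with mean counts in the members' range, edgeR called 80 higher and 70 lower. DESeq2 called none of the 8. At an unadjusted p under 0.05, edgeR had 3 members (Gimap4, Gimap6 and Gimap1) and DESeq2 had 2 (Gimap4 and Gimap6). Over all tested genes 15.5% had an unadjusted p under 0.05 by edgeR, and the share was 24.8% among the 1665 genes whose mean counts lay in the members' range of 57.0 to 179. The same shares by DESeq2 were 6.09% and 12.3%.

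**Figure D1:**
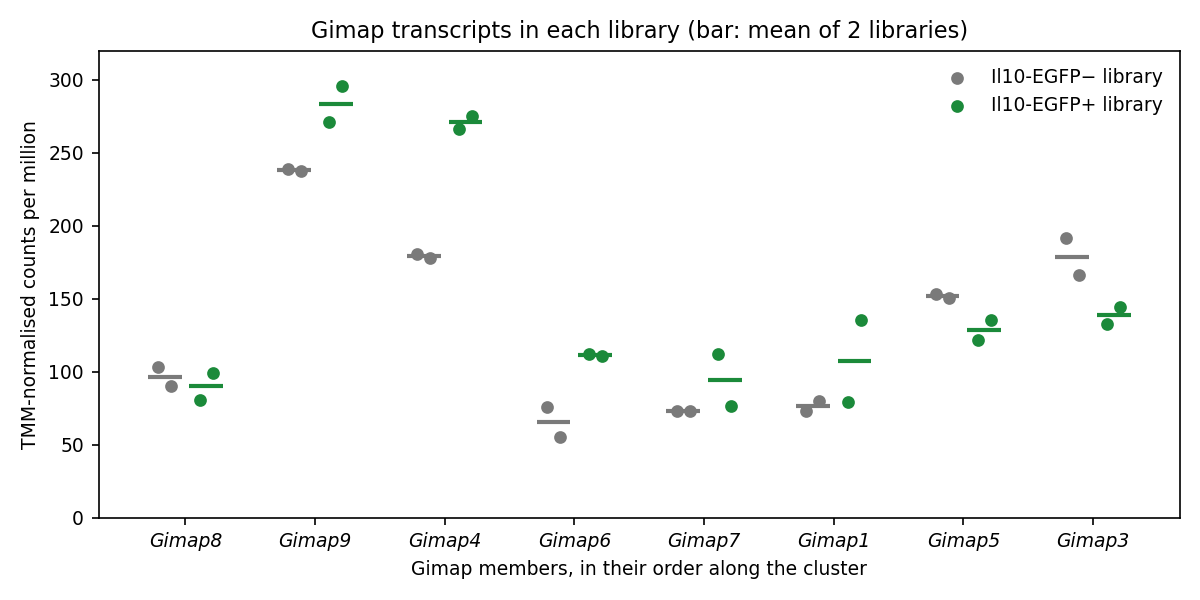
Level of each Gimap member in each library, in CPM scaled by the TMM library sizes (y axis), by Il10-EGFP population (points are libraries, bars the mean of 2). The Gimap4 points lie at 181 and 178 CPM in Il10-EGFP− cells and at 266 and 276 CPM in Il10-EGFP+ cells, while those of Gimap8 overlap.

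Gimap4 had 133 and 122 counts in Il10-EGFP− cells against 168 and 191 in Il10-EGFP+ cells. Scaled to library size with TMM factors, these were 181 and 178 CPM against 266 and 276 CPM. Both Il10-EGFP+ libraries thus lay above both Il10-EGFP− libraries, and the libraries of 1 population lay close together. The means were 179 ± 1.79 and 271 ± 6.61 CPM (SD, n = 2 each), and Gimap4 rose by 0.60 on the log2 scale (SE 0.17, edgeR adjusted p = 0.0272). This is a fold of 1.51 with a 95% interval of 1.20 to 1.91. The authors' regularized log2 values for Gimap4 were 7.06 and 7.05 against 7.39 and 7.42, and they too did not overlap. DESeq2 gave the same fold (log2 0.60) with an adjusted p of 0.222, and the call was lost when any 1 of the 4 libraries was left out, with adjusted p from 0.0784 to 0.147. In bulk RNA, more cells using Gimap4 and more Gimap4 RNA per cell cannot be told apart.

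Gimap6 had the highest log2 fold change of the family, though it did not pass the test. Its counts were 56 and 38 in Il10-EGFP− cells against 71 and 77 in Il10-EGFP+ cells, or 76.0 and 55.4 CPM against 113 and 111 CPM. The Il10-EGFP+ libraries lay together above both Il10-EGFP− libraries, which were farther apart. The log2 fold change was 0.76 (SE 0.24, adjusted p = 0.0582 by edgeR's quasi-likelihood test), with a 95% interval from 0.28 to 1.24. It passed the threshold in 4 of the 11 other settings run. The authors' regularized log2 values for Gimap6 were 5.81 and 5.66 against 6.03 and 6.02.

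Gimap9 was the most abundant member in both populations, with 176 and 163 counts in Il10-EGFP− cells against 171 and 205 in Il10-EGFP+ cells. These were 239 and 238 CPM against 271 and 296 CPM. The groups did not overlap, and the log2 difference of 0.25 (SE 0.16, edgeR adjusted p = 0.494) did not pass the test. Its 95% interval ran from −0.071 to 0.57, so these libraries do not separate no difference from a modest one.

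Gimap7, whose protein stimulates GTP hydrolysis in other family members, had 54 and 50 counts against 71 and 53. Its levels were 73.3 and 73.0 CPM in Il10-EGFP− cells against 113 and 76.5 CPM in Il10-EGFP+ cells. The difference was carried by the first Il10-EGFP+ library (log2 0.36, SE 0.25, edgeR adjusted p = 0.536), and the log2 value was 0.063 without it. Gimap1 showed the reverse arrangement, with 54 and 55 counts against 50 and 94, or 73.3 and 80.2 CPM against 79.2 and 136 CPM. Here the second Il10-EGFP+ library stood above the other 3 and the groups overlapped. The log2 fold change of Gimap1 was 0.49 (SE 0.24, edgeR adjusted p = 0.310), and was 0.045 without that library.

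Gimap1 also had the widest gap between replicates of 1 population. The CPM ratio between the Il10-EGFP+ replicates was 1.71, and an exact binomial test of 94 against 50 counts, given the library sizes, had p = 0.00195 (two-sided, 0.0312 after Benjamini-Hochberg adjustment over 16 such comparisons). For Gimap7 the same exact test of 71 against 53 counts had p = 0.0383 and an adjusted value of 0.306. The other 14 comparisons had adjusted values of 0.79 or more. This test takes each count as 1 independent molecule, so its p is too small if PCR copies were counted. It allows for counting error only, so any other difference between separate libraries also lowers its p.

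Gimap3 and Gimap5, the close pair at the high-coordinate end of the cluster, lay on the other side of 0. Gimap3 encodes a membrane protein of mitochondria and endoplasmic reticulum, and had 141 and 114 counts in Il10-EGFP− cells against 84 and 100 in Il10-EGFP+ cells. These were 191 and 166 CPM against 133 and 144 CPM, with both Il10-EGFP+ libraries below both Il10-EGFP− libraries. The log2 fold change was −0.37 (SE 0.19, edgeR adjusted p = 0.346), with a 95% interval from −0.74 to 0.010. The authors' regularized log2 values were 6.89 and 6.78 against 6.62 and 6.68.

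Gimap5 had 113 and 103 counts against 77 and 94, or 153 and 150 CPM against 122 and 136 CPM. Again the populations did not overlap and the Il10-EGFP+ libraries were the lower ones. The log2 fold change of −0.24 (SE 0.20, edgeR adjusted p = 0.634) had a 95% interval from −0.63 to 0.16. Neither gene of the pair was called lower.

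Gimap8, the long member with several GTPase domains, had 76 and 62 counts against 51 and 69, or 103 and 90.5 CPM against 80.8 and 99.5 CPM. The populations overlapped and the log2 value was −0.10 (SE 0.23, edgeR adjusted p = 0.909). It was the only member whose sign turned in any of the 16 fits, to 0.037 without the first Il10-EGFP+ library.

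**Figure D2:**
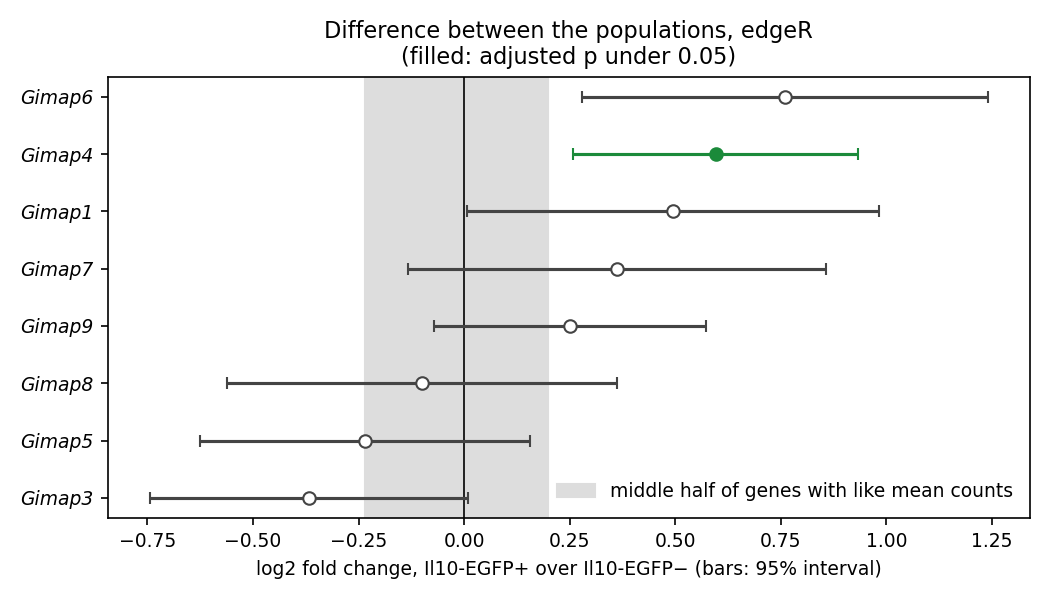
Log2 fold change of each Gimap member, Il10-EGFP+ over Il10-EGFP− cells (edgeR), sorted by that value and not by position, with bars for the 95% interval. Values run from −0.37 for Gimap3 to 0.76 for Gimap6, and the interval of Gimap4 (0.26 to 0.93) lies above 0.

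Across the family 5 members had a positive and 3 a negative fold, and the median log2 value was 0.31. Over all tested genes the median was 2.5e-05 with quartiles of −0.33 and 0.35. Among genes in the members' range of counts it was −0.025, with quartiles of −0.23 and 0.20. By non-overlap, 4 members (Gimap4, Gimap6, Gimap7 and Gimap9) had both Il10-EGFP+ libraries above both Il10-EGFP− libraries and 2 (Gimap3 and Gimap5) had both below. Of all tested genes, 22.3% lay above and 22.3% below in this way. In position, the 5 genes from Gimap9 to Gimap1 were the ones with positive values, and the 3 negative ones were Gimap8 at the low end and Gimap5 and Gimap3 at the high end.

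**Figure D3:**
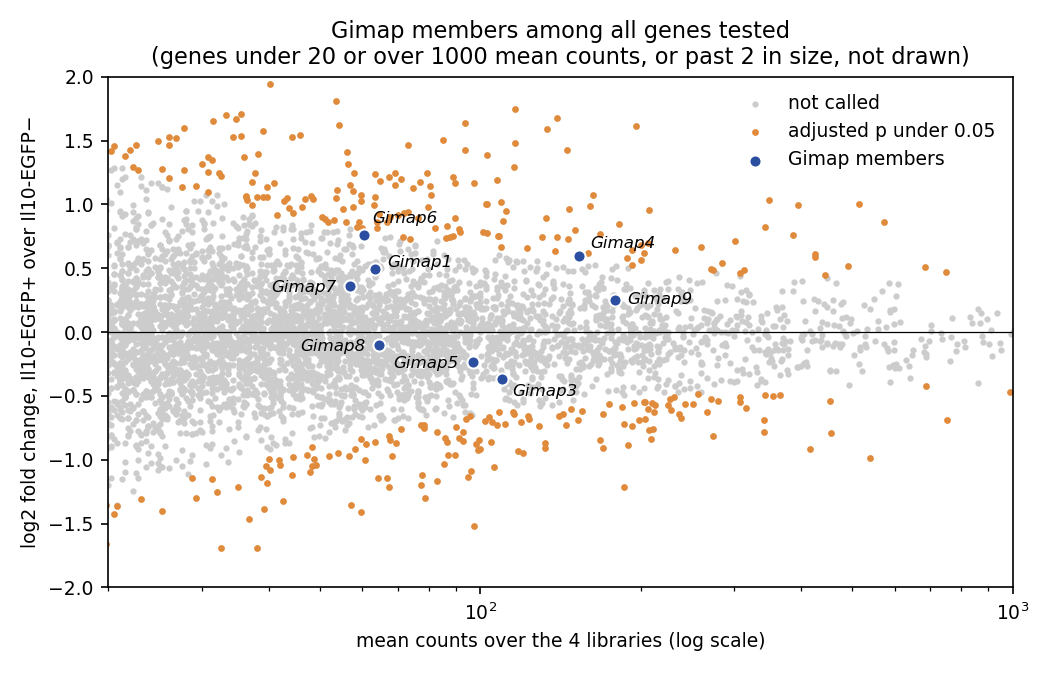
Log2 fold change, Il10-EGFP+ over Il10-EGFP− cells (y axis), against mean counts over the 4 libraries (log x axis) for tested genes within the plotted range, with the 8 Gimap members labelled. The members lie between −0.37 and 0.76, and Gimap4 is the member with an adjusted p under 0.05.

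Summed over the family, there were 803 and 707 counts in Il10-EGFP− cells against 743 and 883 in Il10-EGFP+ cells, 3136 in all. This was 0.110% and 0.103% of the library's counts against 0.115% and 0.126%. On the CPM scale the sums were 1090 and 1032 against 1177 and 1274, with means of 1061 ± 41.3 and 1226 ± 68.3 (SD, n = 2 each). The fold of 1.16, below that of Gimap4 alone, was not tested.

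The share that each member took of the family's counts needs no scaling between libraries, and matched the CPM arrangement for some members only. Without overlap, Gimap4 and Gimap6 were again higher in Il10-EGFP+ cells, and Gimap3 and Gimap5 again lower. Gimap1 overlapped on both scales. Gimap7 and Gimap9, separate in CPM, overlapped in share. Gimap8, which overlapped in CPM, had a lower share in both Il10-EGFP+ libraries. Gimap4 made up 16.6% (exact 95% interval 14.1 to 19.3) and 17.3% (14.5 to 20.3) of the Gimap counts in the Il10-EGFP− libraries. In the Il10-EGFP+ libraries it made up 22.6% (19.7 to 25.8) and 21.6% (19.0 to 24.5). Gimap3 took 17.6% (15.0 to 20.4) and 16.1% (13.5 to 19.1) against 11.3% (9.12 to 13.8) and 11.3% (9.31 to 13.6). Thus Gimap4 and Gimap3 held like shares in Il10-EGFP− cells and unlike shares in Il10-EGFP+ cells. The share of Gimap9 was 21.9%, 23.1%, 23.0% and 23.2% over the 4 libraries, a range narrower than the interval of any 1 library. The intervals are Clopper-Pearson and cover counting error only.

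**Figure D4:**
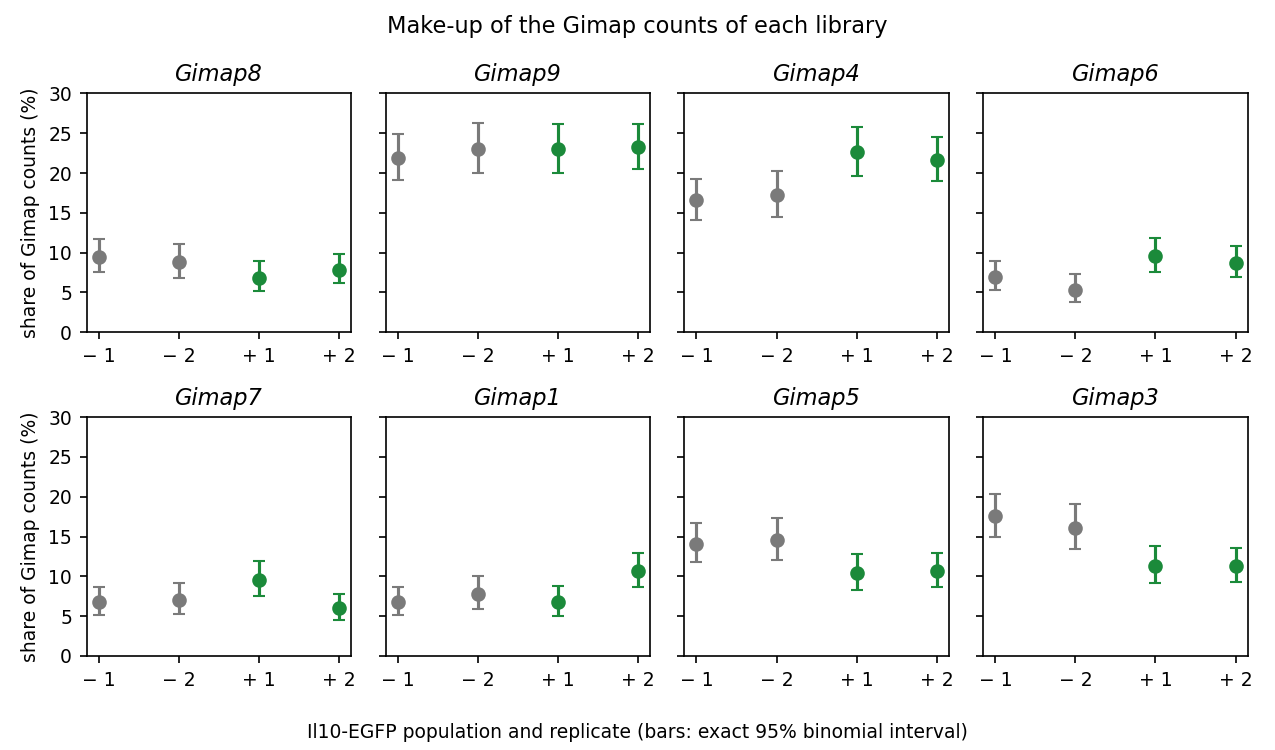
Share of each library's Gimap counts taken by each member (percent), with exact 95% binomial intervals; − and + mark the Il10-EGFP population and 1 and 2 the replicate. Gimap4 moves from 16.6% and 17.3% to 22.6% and 21.6%, Gimap3 from 17.6% and 16.1% to 11.3% and 11.3%, and Gimap9 stays between 21.9% and 23.2%.

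Ratios between members within a library, for pairs picked after their values were seen, put numbers on this. Gimap4 counts were 0.943 and 1.07 times those of Gimap3 in Il10-EGFP− cells against 2.00 and 1.91 times in Il10-EGFP+ cells. The ratio of Gimap4 to Gimap5 was 1.18 and 1.18 against 2.18 and 2.03. The ratio of Gimap6 to Gimap3 was 0.397 and 0.333 against 0.845 and 0.770. In contrast, the ratio of Gimap3 to its near copy Gimap5 was 1.25 and 1.11 against 1.09 and 1.06. The differences in these ratios were not tested.

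The library kit reads the 3′ end of each transcript, so counts do not grow with transcript length and CPM can be set side by side between genes, within the limits of where each 3′ end was annotated. In Il10-EGFP− cells the order by mean CPM was Gimap9 (238), Gimap4 (179), Gimap3 (179), Gimap5 (152), Gimap8 (96.8), Gimap1 (76.8), Gimap7 (73.1) and Gimap6 (65.7). The ranges of the 2 libraries overlapped between Gimap4 and Gimap3 and among Gimap1, Gimap7 and Gimap6, and the other neighbours in this order were separate. In Il10-EGFP+ cells the order was Gimap9 (283), Gimap4 (271), Gimap3 (139), Gimap5 (129), Gimap6 (112), Gimap1 (107), Gimap7 (94.5) and Gimap8 (90.2). There Gimap9 and Gimap4 overlapped each other and lay above the other 6. Below them, Gimap1 (79.2 to 136 CPM) overlapped all of Gimap3, Gimap5, Gimap6, Gimap7 and Gimap8, and Gimap3 overlapped Gimap5.

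Reads of some members could have been counted elsewhere. Gm28053, an overlapping gene on the plus strand, had 0 and 0 counts against 2 and 1, and shared 6.44% of the exonic bases of Gimap1, 3.69% of Gimap5 and 3.48% of Gimap7. The antisense gene Gimap1os covered 36.0% of the exonic bases of Gimap1 and had 20 and 17 counts against 14 and 12. Neither shared any of the last 500 exonic bases of these members, where 3′ reads are taken. Whether counting used the strand was not given in the sources used here, so reads of Gimap1 and of Gimap1os outside that stretch cannot be told apart. No run of 50 bases in the last 500 of any member was found in another member, Gimap3 and Gimap5 included. Outside the family, such runs were shared by Gimap1 with Gm10310 (36 of 451 runs) and Gm49762 (8), and by Gimap3 with Gm38409 (16). Gm10310 had 0 counts in all 4 libraries.

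The bases before the transcription start are shown for Gimap4 and Gimap6, the members with the highest positive fold changes, and for Gimap3, the member with the lowest. They are the 250 bases upstream of the RefSeq start, read 5′ to 3′ on the gene's strand from RefSeq (GRCm38.p6). Capitals mark matches to the motifs searched, and the last bases of the Gimap4 window lie past the GENCODE start of that gene.
Gimap4, chr6:48684328-48684577, plus strand: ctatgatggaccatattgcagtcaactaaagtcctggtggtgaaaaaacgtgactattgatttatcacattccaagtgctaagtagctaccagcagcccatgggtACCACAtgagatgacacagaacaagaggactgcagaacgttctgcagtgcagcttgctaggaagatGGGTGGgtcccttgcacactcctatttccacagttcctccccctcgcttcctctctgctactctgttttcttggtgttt
Gimap6, chr6:48708245-48708494, minus strand: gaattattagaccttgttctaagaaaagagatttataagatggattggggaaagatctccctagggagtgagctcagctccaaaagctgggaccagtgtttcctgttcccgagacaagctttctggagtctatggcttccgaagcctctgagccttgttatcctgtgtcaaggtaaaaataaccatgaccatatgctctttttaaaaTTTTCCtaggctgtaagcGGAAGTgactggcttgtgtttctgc
Gimap3, chr6:48770852-48771101, minus strand: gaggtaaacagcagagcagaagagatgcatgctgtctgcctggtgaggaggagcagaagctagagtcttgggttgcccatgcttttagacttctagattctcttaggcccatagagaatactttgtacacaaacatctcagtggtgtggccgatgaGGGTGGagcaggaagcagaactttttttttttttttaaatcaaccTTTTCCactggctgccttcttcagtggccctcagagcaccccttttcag
6 short motifs were searched on both strands in 9 such windows for the 8 members, Gimap8 having a pair of starts. They were GGAAGT for ETS factors, TGTGGT for RUNX factors, CCACCC for KLF factors, CTTTGA for TCF factors, GGAAAA for NFAT factors and TGANTCA for AP-1 factors. The motifs GGAAGT and GGAAAA share their first letters. In the windows shown, Gimap4 held the RUNX and KLF letters, Gimap6 the ETS and NFAT letters, and Gimap3 the KLF and NFAT letters. Over the family, the KLF letters were found for Gimap3, Gimap4, Gimap5, Gimap8 and Gimap9, the RUNX letters for Gimap1, Gimap4 and Gimap7, the NFAT letters for Gimap1, Gimap3 and Gimap6, and the ETS letters for Gimap5 and Gimap6. The TCF and AP-1 letters were in no member's window. Of 32851 windows over all genes, 28.1% held the KLF, 14.0% the RUNX, 20.4% the NFAT, 19.7% the ETS, 13.8% the TCF and 6.75% the AP-1 letters. No motif was shared by Gimap4 and Gimap6, and a match is a description of the letters, not of binding.

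Other genes of the region gave a local comparison. Of 52 such genes inside the cluster or within 500 kb of either end, 10 reached the minimum of 10 counts: Krba1, Lrrc61, Repin1, Zfp775, Gimap1os, 4833403J16Rik, Tmem176a, Malsu1, Igf2bp3 and Tra2a. Of these, Gimap1os and 4833403J16Rik lay inside the cluster. None of the 10 was called by edgeR or DESeq2, and none had an unadjusted p under 0.05 by either. Tra2a, a splicing regulator, had 226 and 195 counts against 174 and 184 (log2 −0.13, edgeR adjusted p = 0.786). Repin1, a zinc finger gene, had 20 and 19 counts against 10 and 10 (log2 −0.85, edgeR adjusted p = 0.392). Of the 10, none had both Il10-EGFP+ libraries above both Il10-EGFP− libraries and 5 had both below. For the antisense Gimap1os the log2 value was −0.40 (edgeR adjusted p = 0.762), opposite in sign to Gimap1, with no call for either.

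GIMAP proteins have been linked to BCL2 family proteins and to the autophagy machinery, and 10 such genes were listed as partners. All 10 were tested and none was called by edgeR or DESeq2, nor had any an unadjusted p under 0.05 by either tool. Their median log2 value was −0.052, beside 2.5e-05 over all tested genes. Bax, which promotes cell death at the mitochondrial membrane, had 166 and 131 counts against 114 and 128 (log2 −0.19, edgeR adjusted p = 0.685). The kinase gene Gsk3b had 98 and 71 counts against 83 and 86 (log2 0.11, edgeR adjusted p = 0.887).

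Another GTPase group of lymphocytes, the interferon-inducible GTPases (guanylate-binding proteins and immunity-related GTPases), served for comparison. Of 17 listed, 16 were tested, and edgeR called 1 higher and none lower, beside 2.35% and 1.74% of all tested genes. A positive fold was found for 14, and the median log2 value was 0.76. The gene called was Gbp7, which takes part in defence inside the cell, with 55 and 57 counts against 151 and 201 (log2 1.75, SE 0.20, edgeR adjusted p = 7.6e-09). The Gimap median of 0.31 lay between this value and that of all tested genes. The difference between the lists was not tested.

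Since Gimap genes are used by resting lymphocytes, genes of the resting T cell were listed as well. Of 22 tested, edgeR called 2 higher and 4 lower in Il10-EGFP+ cells, beside 2.35% and 1.74% of all tested genes. DESeq2 called 3, beside 1.17% of all tested genes. The median log2 value was 0.090. Klf2, a factor of T cell quiescence and trafficking, rose by 1.07 on the log2 scale (44 and 37 counts against 94 and 64, edgeR adjusted p = 0.00531). Il7r, the receptor chain for the survival cytokine IL-7, rose by 1.53 (19 and 18 counts against 50 and 50, edgeR adjusted p = 0.00114). Bach2, a repressor of effector genes, fell by 1.13 (138 and 128 counts against 46 and 67, edgeR adjusted p = 0.000208). Igfbp4, an insulin-like growth factor-binding protein, fell by 1.30 (128 and 101 counts against 47 and 39, edgeR adjusted p = 8.8e-05). The resting T cell genes that edgeR called thus lay on both sides of 0, while the only Gimap member it called, Gimap4, was higher.

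Activation genes changed in both directions too, with 6 of 19 tested called higher and 1 lower by edgeR, beside 2.35% and 1.74% of all tested genes. DESeq2 called 6, beside 1.17% of all tested genes. The median log2 value was 0.026. Prdm1, which encodes Blimp-1, rose by 2.18 (12 and 16 counts against 52 and 67, edgeR adjusted p = 5.9e-06). Mki67, a gene of dividing cells, rose by 1.61 (119 and 85 counts against 289 and 290, edgeR adjusted p = 1.0e-09). Gzmb, the granule protease granzyme B, rose by 1.59 (70 and 70 counts against 182 and 212, edgeR adjusted p = 1.3e-08). Myc, a driver of cell growth, fell by 1.59 (27 and 19 counts against 7 and 7, edgeR adjusted p = 0.0465). The study used some of these genes to describe the same libraries, so the list is not independent of them.

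Markers of other cells, among them B cells and endothelial cells, which also use Gimap genes, stood beside these values. Of 8 B cell markers tested, edgeR called 4 higher (Cd22, Ighm, Igkc and Jchain), beside 2.35% of all tested genes, and DESeq2 called 2. A positive fold was found for 7, and 7 had both Il10-EGFP+ libraries above both Il10-EGFP− libraries. Cd79a, too low to be tested, had 2, 0, 0 and 0 counts over the Il10-EGFP− and then the Il10-EGFP+ libraries. Of 8 myeloid markers tested, edgeR called 2 higher (Lyz2 and S100a8) and DESeq2 called 0. An unadjusted p under 0.05 was found for 6 by edgeR and 2 by DESeq2. A positive fold was found for 7, while Cd14 and Adgre1 were at 0 in all libraries. Endothelial markers summed to 25.8 and 24.8 CPM against 41.2 and 24.5 CPM, with neither of the 2 tested called and Cdh5, Tek, Esam and Emcn at 0 in all libraries. Erythroid markers summed to 160 and 140 CPM against 273 and 206 CPM, with none of 4 called. At an unadjusted p under 0.05 there were 2 by edgeR and 0 by DESeq2. CD8 T cell and NK cell markers summed to 33.9 and 64.2 CPM against 47.5 and 67.8 CPM, with none of 4 called and 1 at an unadjusted p under 0.05. Of the 12 CD4 T cell markers edgeR called 1, Trac, which encodes the constant region of the T cell receptor alpha chain (log2 0.59, adjusted p = 0.00449). The list's median log2 value was 0.34, with a positive fold for 9 of the 12. The part of these cells in the Gimap values was not tested.

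Genes outside the family that followed its mean profile over the 4 libraries were sought among 2601 genes that averaged 50 or more counts. Likeness was the Euclidean distance between log2 CPM deviations from each gene's own mean, and the family's mean deviations were −0.056 and −0.15 in Il10-EGFP− cells against 0.045 and 0.16 in Il10-EGFP+ cells. Among the 5 closest were Pik3r1, a regulatory subunit of PI3-kinase (distance 0.028), Srgn, a granule proteoglycan (0.050), Snx6, a sorting nexin (0.060), and Rfc1, a replication factor (0.061). The members' own distances to their mean ran from 0.074 for Gimap9 to 0.61 for Gimap6.

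**Figure D5:**
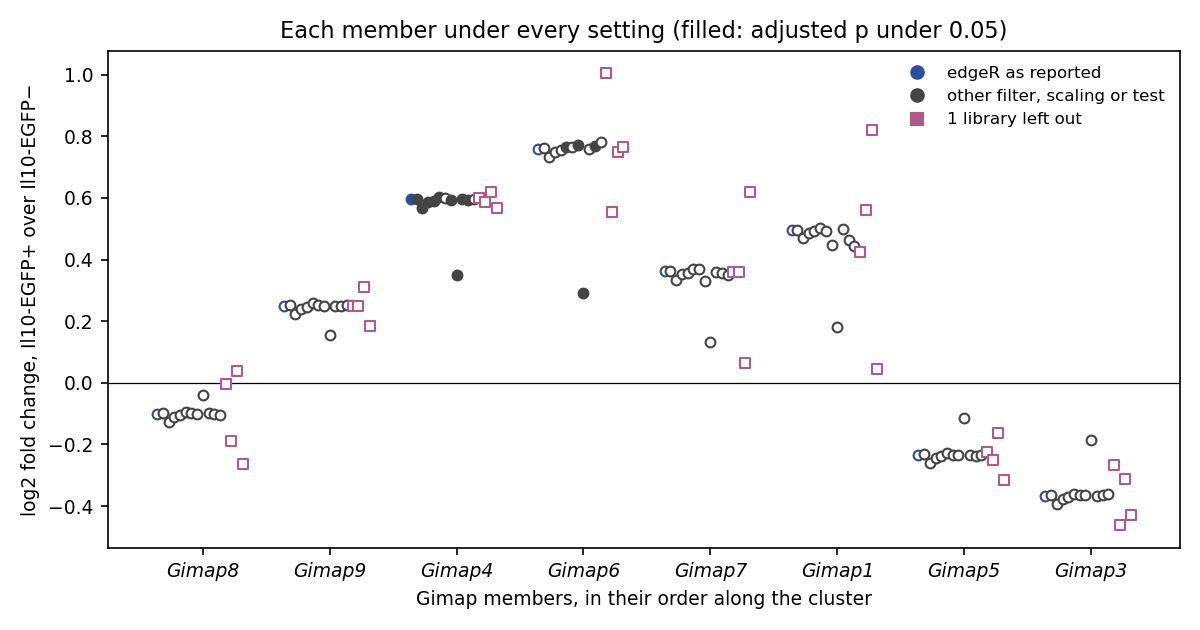
Log2 fold change of each Gimap member, Il10-EGFP+ over Il10-EGFP− cells, under every filter, scaling and test run (circles) and with 1 library left out (squares); filled points have an adjusted p under 0.05. Filled points occur for Gimap4 and Gimap6 alone, and values with 1 library left out spread from 0.045 to 0.82 for Gimap1 and from 0.57 to 0.62 for Gimap4.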

How the data were processed

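RNA of sorted spleen cells was measured in 4 libraries, 2 from Il10-EGFP+ and 2 from Il10-EGFP− CD4+ Timer+ cells, with a 3′ kit (QuantSeq FWD, low-input protocol). The authors deposited raw counts per gene. Reads had gone through BlueBee's pipeline for this kit on GRCm38 (mm10), with STAR 2.5.2a and HTSeq 0.6.0 named in the submitters' processing notes. Unique molecular identifiers were used, and whether the counts were collapsed by them was not given in the sources used here, nor were the annotation release and the strand option. The authors also deposited regularized log2 values from DESeq2 for 9546 genes. A further pair of replicates that the authors removed as outliers was not analysed here, and each of the 2 libraries of a population counts as 1 replicate. p-values measure only the spread between these libraries.

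Genes whose counts summed to 10 or more (9608 of 47643) were tested with edgeR 4.0.16 (quasi-likelihood test, TMM scaling, Benjamini-Hochberg adjustment over all tested genes, threshold 0.05). DESeq2 1.42.0 and limma 3.58.1 in R 4.3.3, other scalings and filters, and fits without each library were alternatives. Library totals, 644679 to 730330 counts, limit precision for genes at the members' levels. The fits were checked on simulated counts. Symbols and exons came from GENCODE M21, with 419 identifiers left without a symbol, and promoters from RefSeq.

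The members, gene lists and motifs were chosen with earlier results of these data known. All members, tested genes within 500 kb, and from each of the 4 comparison lists at most 4 called genes with the largest change (or the 2 with the most counts where none was called) were named, plus the 5 genes closest in profile, of which 1 is not reported here. Cell type markers were named where called, and marker genes at or near 0 and the ratio pairs after their values were seen.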

Additional observations from a re-analysis of the deposited data

How the results depend on the processing

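With 2 libraries a population, the standard errors of the members' log2 fold changes were 0.16 to 0.25, so differences near that size could not be resolved at this depth. The count of 1 Gimap gene called (Gimap4) became 2, with Gimap6 added, under a filter of at least 10 counts in every library, limma voom, limma on the deposited regularized log2 values and edgeR with a replicate block. It became 0 with DESeq2, with DESeq2 and a replicate block, and in each fit with 1 library left out (0 to 0). The replicate numbers were not shown to pair the libraries (correlation of same-numbered deviations 0.035 over 4965 genes). The paper calls the replicates it removed a biological replicate pair, but does not say whether same-numbered libraries came from the same mouse. Gimap4 lost its call with DESeq2 (log2 0.60, adjusted p = 0.222), with the DESeq2 replicate block (0.60, adjusted p = 0.561), and without each library (0.57 to 0.62, edgeR adjusted p from 0.0784 to 0.147). It was called in 9 of the 11 other settings. Gimap6 passed with the filter in every library (0.77, adjusted p = 0.0380), voom (0.77, adjusted p = 0.0456), limma on regularized values (0.29, adjusted p = 0.0469) and the edgeR replicate block (0.77, adjusted p = 0.0264), and ran from 0.56 to 1.00 without each library. Gimap8 turned to 0.037 without Il10-EGFP+ replicate 1, and ran from −0.26 to 0.037. The other 7 members kept their sign in all 16 fits. Gimap1 ran from 0.045 without Il10-EGFP+ replicate 2 to 0.82 without replicate 1, and Gimap7 from 0.063 to 0.62. Over all genes, the 393 calls became 112 with DESeq2, 39 with the DESeq2 replicate block, 560 with the edgeR replicate block, and 212 to 272 with 1 library left out, lowest without Il10-EGFP+ replicate 2, where the lone library was assumed to vary like the other population. Scaling by library size alone gave 367 calls, 190 higher and 177 lower. Calls in the fixed lists went from 14 (9 higher and 5 lower) to 6 with the DESeq2 replicate block (6 higher and 0 lower). The cause of these changes was not tested.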
